A study of Homo sapiens with 32 samples.

Results

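The genes described here are the WNT ligands and the proteins that receive or restrain them, read in Ewing sarcoma cell lines in which the cohesin subunit STAG2, its paralogue STAG1 or the Polycomb subunits EZH2 and SUZ12 had been removed. They were chosen by gene symbol: every row named as a WNT, Frizzled (FZD), DKK, SFRP, RSPO, DACT, NKD, LGR4 to LGR6, LRP5, LRP6, AXIN, LEF1, TCF7, ZNRF3, RNF43, WIF1 or NOTUM gene, which gave 59 of the 28278 genes counted. They comprised 19 ligands, 10 Frizzled receptors, 2 LRP co-receptors, 4 R-spondins, 3 R-spondin receptors, 2 receptor ubiquitin ligases, 10 secreted antagonists, 7 intracellular inhibitors and 2 transcription factors.

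WNT proteins are secreted lipid-modified ligands that bind a Frizzled receptor together with LRP5 or LRP6, which spares beta-catenin from destruction and lets it act with TCF and LEF factors on target genes. The ubiquitin ligases ZNRF3 and RNF43 remove Frizzled receptors from the surface, R-spondins acting through LGR4 to LGR6 oppose that removal, and DKK, SFRP, WIF1 and NOTUM proteins act outside the cell against the ligand or co-receptor. AXIN, DACT and NKD proteins act inside the cell, and several of these genes, such as AXIN2, NKD1, LEF1 and RNF43, are themselves targets of the pathway in many tissues.

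The study sequenced 32 RNA libraries. Experiments 1 to 3 used A673, an Ewing sarcoma line that carries the EWSR1-FLI1 fusion, and 22 libraries came from it: parental cells (1 library in each experiment), a WT clone that carries a doxycycline-inducible Cas9 (iCas9) at the AAVS1 locus (2, 2 and 1 libraries, all of 1 clone), and knockout (KO) clones derived from that WT clone, each KO library being 1 clone. These were 5 STAG2 KO libraries (2 in experiment 1, called library 24 and library 5 after their columns, and clones 2, 3 and 5 in experiment 2), 3 EZH2 KO and 3 SUZ12 KO libraries in experiment 2, and 3 STAG1 KO libraries (columns 1, 5 and 7) in experiment 3. Experiment 4 compared parental A673 cells after mock transfection with cells given a small interfering RNA against STAG2 (siSTAG2), 3 libraries each. Finally, a pair of SKNMC libraries compared cells with STAG2 (WT) with a STAG2 KO, and a pair of A4573 libraries compared cells that lack STAG2 (WT) with cells in which STAG2 was restored by knock-in (KI), all 4 with iCas9 and with 1 library each. Parental and WT clone libraries served together as controls.

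The clone libraries held 15734628 to 20663679 counts, the pairs 29322507 to 32261248, and the knockdown libraries 6852340 to 8184632 reads recovered from their normalized values. Of 10 Ewing sarcoma markers, 9 stood at 1 CPM (counts scaled to the library total) or more in all 26 libraries with counts, and CD99 was listed at 0 in each. In the knockdown libraries, also of A673, all 10 markers reached a mean of at least 10 normalized reads. The 0 for CD99 is therefore no sign that the cells lack it, and its source was not tested. STAG2 transcript fell with its knockout, from 247 to 346 CPM in 6 controls to 43.4 to 188 CPM in 5 STAG2 KO libraries, EZH2 and SUZ12 fell likewise, and STAG1 stood at 15.0 to 61.9 CPM in the 3 STAG1 KO libraries against 57.0 and 68.2 CPM in their controls, so 1 library labelled STAG1 KO (column 1) was at control level. STAG2 KO clone 5 of experiment 2 stood apart: its counts differed from those of its 2 sister clones by a mean chi-square of 113 to 140 per gene, against 25.7 between those 2 clones. Values below are normalized CPM (TMM scaling) unless another scale is named, and in such bulk RNA fewer cells of a type and less RNA per cell cannot be told apart.

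Counts per gene do not show which start site was used. Sequence upstream of the annotated RefSeq start is given for 4 members. They are DACT2, which fell to near 0 in STAG2 KO libraries, FZD4 and FZD8, which moved in opposite directions after loss of STAG2 and after loss of either Polycomb subunit, and LEF1, which rose after Polycomb loss. Each run is the 250 bases before the RefSeq start on GRCh38.p14, 5′ to 3′ on the gene's strand, with CG dinucleotides in capitals: DACT2 at chr6:168319778-168320027, FZD4 at chr11:86955396-86955645, FZD8 at chr10:35642297-35642546 and LEF1 at chr4:108166302-108166551, all on the minus strand.
DACT2: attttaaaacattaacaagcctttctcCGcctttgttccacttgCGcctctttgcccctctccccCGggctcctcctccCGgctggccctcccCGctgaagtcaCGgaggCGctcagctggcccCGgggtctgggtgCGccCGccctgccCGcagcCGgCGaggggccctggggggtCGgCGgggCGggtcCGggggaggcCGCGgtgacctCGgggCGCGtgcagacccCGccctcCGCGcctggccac
FZD4: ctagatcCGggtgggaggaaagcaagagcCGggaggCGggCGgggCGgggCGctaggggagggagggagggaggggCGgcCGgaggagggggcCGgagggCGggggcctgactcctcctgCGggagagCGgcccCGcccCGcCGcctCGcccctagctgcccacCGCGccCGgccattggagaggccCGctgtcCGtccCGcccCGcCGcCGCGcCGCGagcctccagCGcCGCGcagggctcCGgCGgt
FZD8: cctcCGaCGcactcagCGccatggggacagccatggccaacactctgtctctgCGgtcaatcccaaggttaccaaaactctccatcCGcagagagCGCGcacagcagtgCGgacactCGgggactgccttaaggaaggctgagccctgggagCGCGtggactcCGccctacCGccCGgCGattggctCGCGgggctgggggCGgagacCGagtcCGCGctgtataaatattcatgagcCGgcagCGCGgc
LEF1: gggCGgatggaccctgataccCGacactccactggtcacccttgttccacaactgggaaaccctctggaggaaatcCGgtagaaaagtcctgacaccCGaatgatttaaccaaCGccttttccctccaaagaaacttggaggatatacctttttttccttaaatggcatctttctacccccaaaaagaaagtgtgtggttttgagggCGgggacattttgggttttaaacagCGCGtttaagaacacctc
The runs held 25, 33, 24 and 8 CG dinucleotides, against a median of 11 over all 35116 RefSeq promoters of that length and of 21.5 over the 50 promoters of the 40 members with an entry. The LEF1 start used by RefSeq lies inside the gene as drawn by the annotation used here for exon lengths. The letters CTTTGA, the core of the TCF and LEF motif, were found on either strand in the promoters of DKK1 and DACT1 and in 11.2% of all promoters, and a doubled GGAA, GGAAGGAA, in that of RSPO3 and in 3.06% of all. FZD3, LRP6, AXIN2, LGR5, FZD2, WNT11, NKD1, SFRP1, DKK4, WNT7B, FZD6, FZD7, WNT10B, DKK3, NOTUM, DKK2, FZD10, RSPO2 and ZNRF3 had no entry.

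In control A673 cells the 7 highest levels per length belonged to DKK2 and to receptors or co-receptors. Of the 59 members, 31 had a mean of at least 1 CPM over the 8 control libraries and 18 at least 10 CPM, while 1 had no count in any of the 22 clone libraries. Divided by transcript length (CPM per kb of merged exons), the highest level belonged to DKK2, a secreted antagonist that binds LRP5 and LRP6, at 44.4 ± 11.3 (SD, n = 8). FZD1 at 34.4 ± 9.82, FZD4 at 30.1 ± 5.04, LGR4 at 23.7 ± 5.60, LRP5 at 20.5 ± 3.30, FZD8 at 17.7 ± 3.05 and LRP6 at 15.5 ± 3.12 CPM per kb followed, and each of these neighbours in the order overlapped the next within its range over libraries. The first ligand was WNT5A, mostly known for beta-catenin-independent signalling, at 3.24 ± 0.724 CPM per kb, and the receptors FZD3, FZD5, FZD6 and FZD9 had lower means than it. The transcription factors TCF7 and LEF1 stood at 0.254 ± 0.106 and 0.0631 ± 0.0443 CPM per kb, and AXIN2, the most general target of the pathway, at 2.02 ± 0.215. FZD4, FZD8, LGR4, LEF1 and TCF7 share exonic bases with a gene on the other strand (PRSS23, ENSG00000287528, LGR4-AS1, LEF1-AS1 and SKP1), and the kit used does not mark strand, so reads of such pairs cannot be told apart.

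**Figure D1:**
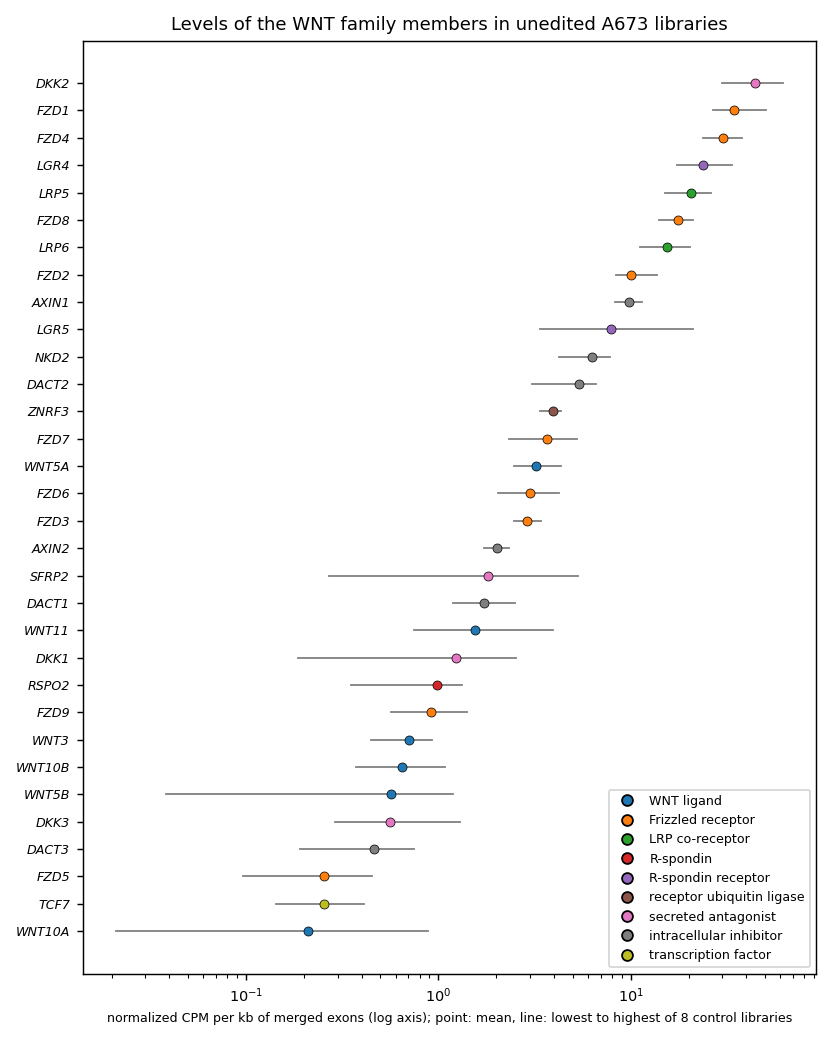
Levels of the 32 members with a mean of at least 0.1 CPM per kb in the 8 A673 control libraries (log axis, CPM per kb of merged exons). Each point is the mean, coloured by role, and each line runs from the lowest to the highest library. DKK2 is highest at a mean of 44.4, and the first ligand, WNT5A, stands at 3.24.

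The other lines differed in the level of single members. SFRP1, a secreted protein that binds WNT ligands, was at 47.0 and 30.9 CPM in the 2 A4573 libraries and at no more than 0.0545 CPM in the 8 A673 controls. WNT10A, a ligand of skin and tooth development, was at 84.9 CPM in SKNMC WT against 0.0615 to 2.58 CPM in the A673 controls, and RNF43 at 36.0 against 0 to 0.0478 CPM. These levels have no replicate in SKNMC or A4573.

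Loss of STAG2 in A673 lowered secreted antagonists of the DKK family, DACT2, RSPO2 and the R-spondin receptor LGR5. No ligand was called in the fit of both experiments. In the 6 control and 5 STAG2 KO libraries 34 members passed the filter on low counts, none of them through 1 group alone, and 8 were lower and 2 higher at an adjusted p under 0.05, where 5.76% of the 13574 genes tested were lower and 6.67% higher. The members' median log2 fold change was -0.00126 beside 0.04 over all genes tested. By role, 3 of 4 secreted antagonists tested (DKK1, DKK2, DKK3), 2 of 7 intracellular inhibitors (DACT2, NKD2), the 1 R-spondin tested (RSPO2) and 1 of 2 R-spondin receptors (LGR5) fell. Of 9 Frizzled receptors FZD4 fell and FZD3 and FZD8 rose, and 0 of 6 ligands, 0 of 2 LRP co-receptors and 0 of 2 transcription factors passed the test.

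DACT2, an intracellular protein that binds Dishevelled, changed most. Its controls ranged from 13.1 to 26.8 CPM with a median of 21.7, and the KO libraries stood at 0 and 0.0592 in experiment 1 and at 0.835, 1.11 and 0.213 in experiment 2. No KO library reached the lowest control, and the log2 fold change was -5.89 ± 0.64 (SE; adjusted p = 0.000255, edgeR quasi-likelihood test with Benjamini-Hochberg adjustment, as for every adjusted p below unless limma is named). Within experiment 1 it was -9.06 and within experiment 2 -5.05, both past the threshold.

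RSPO2, an R-spondin that strengthens WNT signals through LGR receptors, ran from 2.65 to 5.77 CPM in controls with a median of 4.94, and stood at 0.346, 0.296, 0.334, 0.424 and 0.532 in the KO libraries. The groups were apart in both experiments, at a fitted log2 change of -3.61 ± 0.31 (adjusted p = 6.24e-05), -3.84 within experiment 1 and -3.46 within experiment 2. DACT2 and RSPO2 were the only members called in experiment 2 alone.

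The DKK genes, secreted antagonists of the LRP co-receptors apart from the divergent DKK3, fell together. DKK2 ranged from 130 to 269 CPM in controls with a median of 210, and in KO libraries stood at 9.63, 22.3, 127, 24.2 and 23.1. Clone 2 of experiment 2, at 127, lay just under the lowest control and far above the other KO libraries, and the log2 fold change was -2.58 ± 0.56 (adjusted p = 0.0125). DKK3, which shares exonic bases with USP47 on the other strand, ranged from 3.47 to 6.37 CPM in controls with a median of 4.0, and stood at 0.749, 0.83, 1.89, 1.27 and 0.106 in KO libraries. Its groups did not overlap, at a fitted log2 change of -2.27 ± 0.50 (adjusted p = 0.0136). DKK1, which overlaps PRKG1-AS1, ranged from 0.416 to 3.66 CPM in controls with a median of 2.23 and stood at 0.231, 0.178, 1.45, 0.795 and 0.639 in KO libraries. Here the groups overlapped through parental cells of experiment 1 (0.416), the log2 fold change was -2.0 ± 0.53 (adjusted p = 0.0305), and the call was lost under 10 of 19 alternatives.

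LGR5, an R-spondin receptor and stem cell marker in the intestine, ranged from 17.7 to 33.7 CPM in controls with a median of 24.1. In KO libraries it stood at 1.44, 6.34, 8.35, 13.7 and 4.37, apart from every control, at a fitted log2 change of -2.02 ± 0.46 (adjusted p = 0.0152). Its exons overlap ENSG00000288530 on the other strand. NKD2, which like NKD1 binds Dishevelled, ranged from 12.3 to 22.7 CPM in controls with a median of 17.0 and stood at 0.749, 7.46, 6.24, 7.63 and 6.55 in KO libraries. These groups did not overlap either, yet the call (log2 fold change -1.64 ± 0.47, adjusted p = 0.0438) was lost under 13 of 19 alternatives.

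Frizzled receptors shifted less, and in both directions. FZD4, a receptor for WNT ligands and Norrin, ranged from 176 to 251 CPM in controls with a median of 205 and stood at 117, 117, 127, 153 and 146 in KO libraries. The log2 fold change was -0.69 ± 0.14 (adjusted p = 0.00915) with no overlap. FZD8 ranged from 56.8 to 85.7 CPM in controls with a median of 67.1 and stood at 160, 151, 111, 120 and 70.9 in KO libraries. Clone 5 of experiment 2 lay among the controls and the other 4 above them, at a fitted log2 change of 0.85 ± 0.18 (adjusted p = 0.0103). FZD3 ranged from 34.3 to 46.9 CPM in controls with a median of 39.3 and stood at 66.6, 65.1, 56.3, 49.2 and 51.5 in KO libraries, a log2 fold change of 0.52 ± 0.12 (adjusted p = 0.0158) with no overlap. With the WT clone as the only control, FZD3, FZD8 and NKD2 were no longer called.

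**Figure D2:**
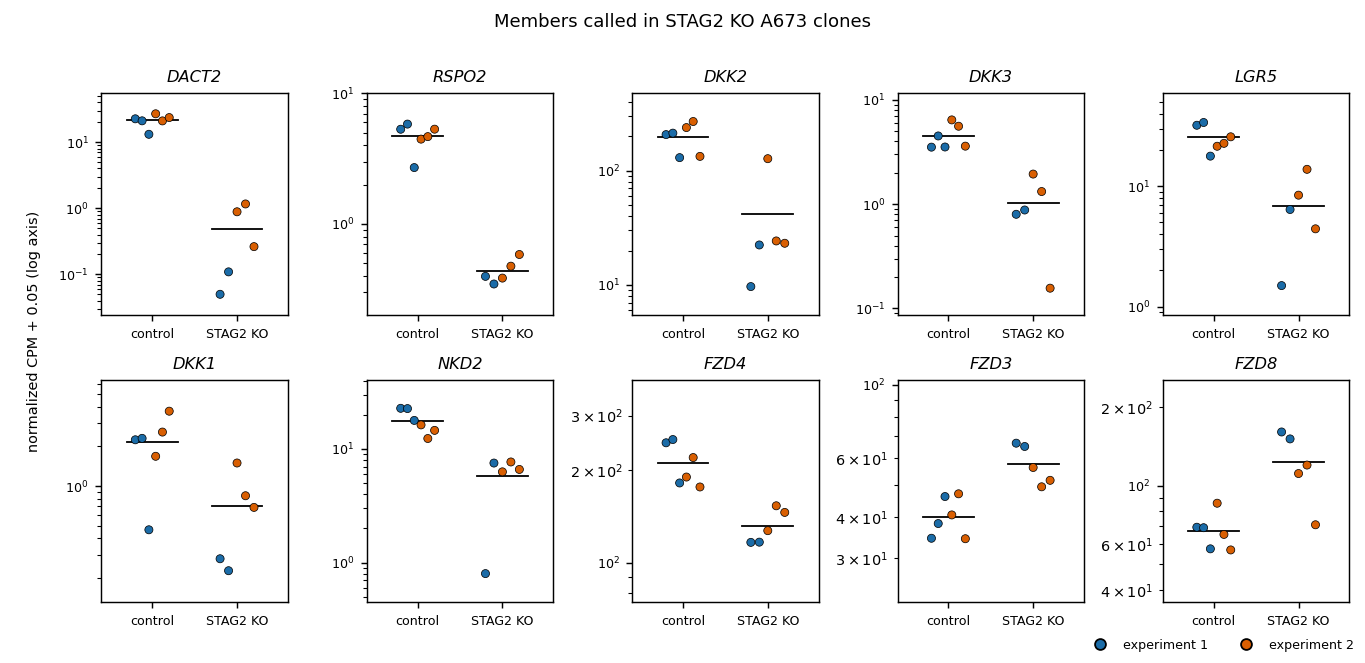
The 10 members called in STAG2 KO libraries, with 1 point for each of 6 control and 5 KO libraries of experiments 1 and 2 (log axis, normalized CPM plus 0.05) and a bar at each group's mean. DACT2 runs from 13.1 to 26.8 in controls and from 0 to 1.11 in KO libraries, and 1 DKK2 library, at 127, sits close to the controls.

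The direction of the 10 members was the same in both experiments. Within experiment 1 alone 12 members were called, 8 of the 10 above with DACT1, LRP6, WNT5A and ZNRF3, and within experiment 2 alone 2. DKK1 and NKD2 were called in neither experiment alone. The experiment 2 values were -1.91 for DKK2, -2.27 for DKK3, -1.46 for DKK1, -1.42 for LGR5, -1.09 for NKD2, -0.48 for FZD4, 0.35 for FZD3 and 0.52 for FZD8 on the log2 scale, none past the threshold there. The difference between the experiments was not tested. Without clone 5 of experiment 2, 13 members were called, the 10 above and DACT1, FZD1 and SFRP2.

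RNF43 had 0 counts in the 6 controls and 56 in the 5 STAG2 KO libraries, of which 45 came from clone 5 of experiment 2 and 11 from the other 4, and it did not pass the filter on low counts. In that clone LEF1 stood at 6.55 CPM, SFRP2 at 6.18, FZD5 at 5.91 and NKD1 at 2.13, each above the other 4 KO libraries and all 6 controls. What sets that clone apart was not tested.

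Knockdown of STAG2 in parental cells lowered DACT2, DKK2 and DKK3, while LGR5 (-0.23, limma adjusted p = 0.571), NKD2 (0.04, 0.861), FZD4 (-0.17, 0.191) and FZD3 (0.17, 0.140) did not pass, and DKK1 and RSPO2 were not tested. Of 21 members tested by limma on log2(normalized reads + 1), 6 were lower and 1 higher, where 11% of the 12060 genes tested were lower and 9.54% higher, and the members' median was -0.17 beside 0.00665 over all genes. DACT2 stood at 203, 240 and 236 normalized reads in mock-transfected cells and at 28.8, 48.2 and 37.7 in siSTAG2 cells, a difference of -2.56 ± 0.16 on the log2 scale (limma adjusted p = 4.44e-12). DKK3 stood at 41.9, 28.5 and 40.6 against 5.55, 7.42 and 9.66, or -2.16 ± 0.31 (limma adjusted p = 9.43e-06). DKK2 stood at 489, 536 and 592 against 287, 281 and 249, or -0.98 ± 0.09 (limma adjusted p = 2.75e-09). No siSTAG2 library reached the mock-transfected range of any of these genes. RSPO2, with a mean under the minimum of 10 for the limma fit, stood at 12.4, 13.8 and 12.5 against 5.55, 6.49 and 3.86. It was called lower by edgeR on recovered reads, an alternative with its own low-count filter.

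WNT5A had no call in the STAG2 KO fit of both experiments. In experiment 1 alone it was called higher, at 37.4 and 33.3 CPM against 23.0, 22.8 and 24.8 in controls. In experiment 2 it stood at 13.8, 22.4 and 16.3 CPM against 18.5, 17.8 and 17.6. After knockdown WNT5A fell, from 84.8, 58.1 and 85.4 normalized reads in mock-transfected to 32.2, 43.6 and 39.6 in siSTAG2 cells (-0.96 ± 0.19, limma adjusted p = 0.000726). LGR4, the R-spondin receptor with the highest level per kb in A673 controls, stood at 184, 187 and 195 against 103, 95.5 and 124 (-0.81 ± 0.12, limma adjusted p = 1.5e-05). FZD2 fell from 213, 197 and 250 to 178, 136 and 184 (-0.41 ± 0.12, limma adjusted p = 0.0146), and FZD8 rose from 209, 231 and 244 to 349, 312 and 336 (0.55 ± 0.09, limma adjusted p = 8.32e-05). The mock-transfected and siSTAG2 groups did not overlap for any of these 4 genes, and the FZD2 call was lost without mock-transfected replicate 3 or siSTAG2 replicate 2. Of the 59 members, 16 were listed at 0 in all 6 libraries, among them ZNRF3, which was counted at 27.6 CPM in the A673 clone controls.

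**Figure D3:**
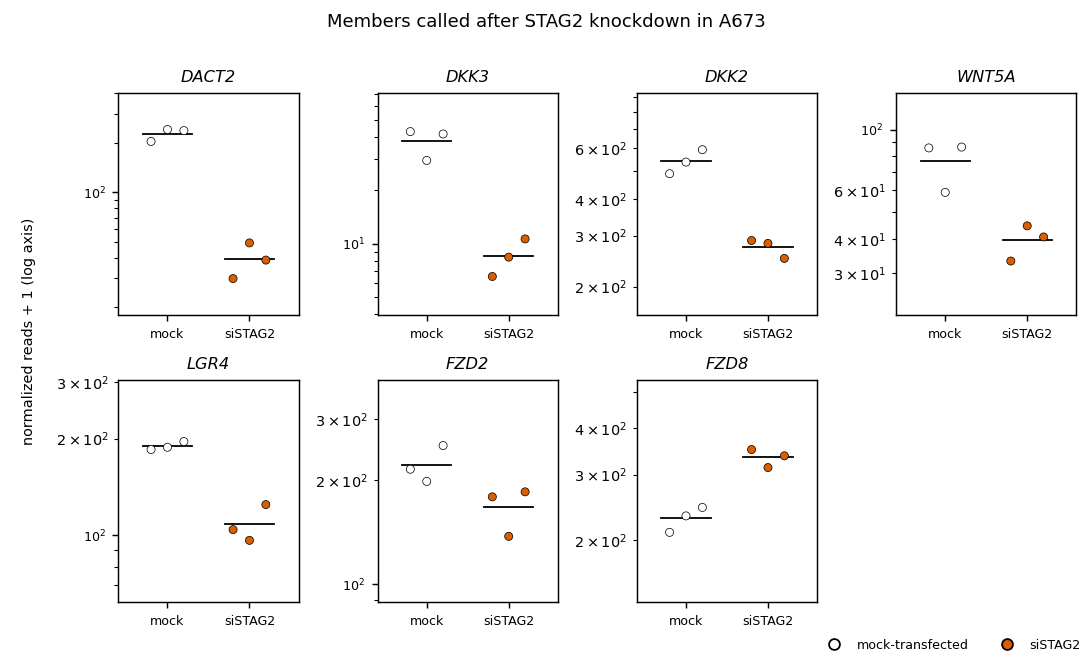
The 7 members called after STAG2 knockdown, with 1 point for each of 3 mock-transfected and 3 siSTAG2 libraries (log axis, normalized reads plus 1) and a bar at each mean. The siSTAG2 points of DACT2, between 28.8 and 48.2, lie below its mock-transfected points, between 203 and 240, and FZD8 alone is higher after knockdown.

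In SKNMC and A4573 each state had 1 library, so these values have no replicate check and are given as log2 ratios of the library without STAG2 over the library with STAG2, with 95% intervals that cover counting error only. Of the 43 members with at least 10 counts in a pair, 12 were lower and 9 higher by 2-fold in SKNMC, where 11.3% and 10.3% of 16413 genes were, and 10 were lower and 4 higher in A4573, where 14.5% and 7.49% of 16124 genes were. The members' median ratio was -0.09 in SKNMC and -0.12 in A4573, beside 0.000277 and -0.03 over all genes.

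In SKNMC 3 of 6 secreted antagonists were lower without STAG2 by 2-fold and 1 higher, and 2 of 7 intracellular inhibitors were lower and 1 higher. DKK1 went from 856 to 39 counts (-4.27, interval -4.84 to -3.87), DACT2 from 1881 to 116 (-3.88, -4.18 to -3.63) and DKK2 from 9970 to 696 (-3.71, -3.84 to -3.61). LGR5 went from 688 to 97 counts (-2.68), NKD2 from 1221 to 222 (-2.33), RNF43 from 1179 to 251 (-2.10) and DKK3 from 70 to 17 (-1.81). LGR6, another R-spondin receptor, had a ratio of -1.61, WNT5A of -1.52, WNT10A of -1.46, FZD4 of -1.37 and LRP6 of -1.25. Higher without STAG2 were the ligand WNT9A, from 11 to 51 counts (2.14), the Dishevelled-binding DACT3, from 60 to 205 (1.86), and the antagonist SFRP5, from 165 to 513 (1.75). WNT2B (15 and 47 counts), RSPO3 (27 and 75), FZD6 (367 and 849) and WNT10B (33 and 77) had ratios of 1.64, 1.52, 1.33 and 1.29, where WNT2B shares exonic bases with ST7L and RSPO3 with ENSG00000286215. Some markers of other cells moved with this pair: among blood cell markers PTPRC went from 99 to 1776 counts while CD3E and CD14 stayed at 22 counts or fewer. Among 3 epithelial markers EPCAM went from 27 to 286 and CDH1 from 0 to 13, while KRT19 went from 13 to 7. The endothelial marker CDH5 went from 39 to 98 and the melanocyte marker PMEL from 248 to 74. Their part in the result was not tested.

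In A4573 the direction was the same for some members and opposite for others. NOTUM, an enzyme that removes the lipid from WNT ligands, had 147 counts with STAG2 and 16 without (-3.02, interval -4.02 to -2.42), and LGR6 58 and 7 (-2.71). WNT5B, with 209 and 35 counts (-2.48), DKK2, with 2039 and 615 (-1.69), and FZD4, with 7296 and 2384 (-1.58), were lower too. DKK3, WNT2B and WNT5A had ratios of -1.16, -1.10 and -1.07. DACT2 ran the other way, with 66 counts with STAG2 and 287 without (2.12, interval 1.76 to 2.56), as did TCF7, with 37 and 175 (2.21), and WNT9A, with 21 and 48 (1.15). DKK2, DKK3, FZD4, LGR6 and WNT5A were lower by 2-fold in both lines, WNT9A and, at under 50 counts in A4573, RSPO3 were higher in both, and DACT2, WNT2B and, at under 50 counts, WNT8B moved in opposite directions. Markers of other cells differed here too, with EPCAM at 63 counts with STAG2 and 17 without, VWF at 35 and 2 and CDH5 at 1 and 10, and their part was not tested.

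After loss of either Polycomb subunit LEF1, SFRP1, FZD5, NKD1 and WNT10B were higher and FZD4, FZD2, LGR5 and DACT2 lower. EZH2 and SUZ12 are the catalytic and a core subunit of PRC2, which places a repressive methyl mark on histone H3. In 1 fit of the 12 experiment 2 libraries 40 members were tested, and 12 were higher and 4 lower in EZH2 KO, where 12% and 3.69% of 15130 genes were, while 14 were higher and 5 lower in SUZ12 KO, where 14.7% and 5.87% were. The members' median log2 fold change was 0.55 in EZH2 KO and 0.88 in SUZ12 KO, beside 0.04 and 0.00883 over all genes. For each knockout 9 of the tested members had under 10 counts in every control library and passed the filter only through libraries where they were high. They were LEF1, NOTUM, RNF43, RSPO4, SFRP1, WNT10A, WNT2B, WNT4 and WNT5B. In each knockout 6 of the 9 were called higher, so the counts above say nothing of members that stayed low. Both comparisons share their 3 controls (WT clone replicate 1, WT clone replicate 2 and parental), and the values below are given in that order.

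LEF1, the pathway's own transcription factor, stood at 0.0545, 0.123 and 0.430 CPM in controls, at 17.6, 15.5 and 22.2 in EZH2 KO and at 17.2, 16.3 and 24.7 in SUZ12 KO libraries. Every EZH2 KO and SUZ12 KO library lay far above every control, and the log2 fold changes were 6.46 ± 1.16 (adjusted p = 0.00337) and 6.54 ± 1.16 (adjusted p = 0.00229). LEF1 had at most 8 counts in any control and was tested only because other libraries were high, so these p-values add little to the values themselves. Reads of LEF1-AS1 on the other strand cannot be told apart from it. TCF7 stood at 1.74, 1.48 and 3.23 CPM in controls, at 5.51, 3.0 and 6.78 in EZH2 KO and at 6.05, 7.76 and 8.62 in SUZ12 KO, and was called in SUZ12 KO (1.81 ± 0.48, adjusted p = 0.0201). The EZH2 KO libraries overlapped the controls for TCF7.

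Among antagonists SFRP1 had 1 count in the 3 controls together (0.0545 CPM in 1 of them). It stood at 2.80, 1.94 and 5.73 CPM in EZH2 KO and 14.3, 18.7 and 3.90 in SUZ12 KO, ratios of 190 (95% interval 33.7 to 7541) and 680 (122 to 26875) with adjusted p of 0.00107 and 0.000207. These intervals come from counts summed over 3 libraries and cover counting error only, not the spread between clones. SFRP2 stood at 0.817, 0.861 and 0.538 CPM in controls and 6.14, 7.85 and 5.21 in SUZ12 KO, and was called there (3.13 ± 1.02, adjusted p = 0.0484), though not under 10 of 17 alternatives. NOTUM had 3 counts in the controls and 68 in SUZ12 KO, a ratio of 19.6 (6.44 to 97.6). DKK2, by contrast, stood at 238, 269 and 133 CPM in controls and at 45.6, 64.9 and 49.7 in SUZ12 KO (-1.98 ± 0.60, adjusted p = 0.0354), with 94.0, 111 and 45.9 in EZH2 KO, where it did not pass the test.

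RNF43 and RSPO4, which act on the same receptor-removal step in opposite senses, had no count in the controls. RNF43 reached 0.531, 1.5 and 1.72 CPM in EZH2 KO and 1.06, 1.88 and 0.868 in SUZ12 KO, at least 22-fold and at least 23.1-fold higher against a floor of 3 counts over the control group. RSPO4 reached 0.387, 0.444 and 0.287 CPM and 0.774, 2.65 and 0.705 CPM, at least 6.54-fold and at least 25.4-fold higher. Both were called in both knockouts, but the EZH2 KO call was lost under 6 of 16 alternatives for RSPO4 and 4 of 17 for RNF43. RNF43 shares exonic bases with TSPOAP1-AS1 and ENSG00000285897, NOTUM with ENSG00000235296, NKD1 with ENSG00000205414 and FZD6 with BAALC-AS1.

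Of 8 ligands tested 4 rose in EZH2 KO and 3 in SUZ12 KO. Among those tested, WNT10A, WNT2B, WNT4 and WNT5B had under 10 counts in every control library and passed the filter only through other libraries. Of 9 Frizzled receptors 3 rose and 2 fell in each, while 0 of 2 LRP co-receptors passed and 1 of 2 R-spondin receptors fell. Over all genes tested 12% rose and 3.69% fell in EZH2 KO, and 14.7% and 5.87% in SUZ12 KO. WNT4, a ligand of kidney and gonad development that overlaps ENSG00000285873, stood at 0.163, 0.0615 and 0 CPM in controls, at 1.45, 2.66 and 0.669 in EZH2 KO and at 0.967, 4.71 and 0.651 in SUZ12 KO (4.31 ± 1.07 and 4.72 ± 1.07, adjusted p = 0.0190 and 0.00907). FZD5 stood at 0.926, 0.677 and 1.34 CPM in controls, 7.25, 5.27 and 8.93 in EZH2 KO and 10.3, 15.2 and 6.56 in SUZ12 KO (2.87 ± 0.54 and 3.45 ± 0.55, adjusted p = 0.00437 and 0.00124). WNT10B stood at 1.53, 1.11 and 0.968 CPM in controls, 5.56, 2.28 and 6.88 in EZH2 KO and 4.93, 4.98 and 5.80 in SUZ12 KO (2.04 ± 0.41 and 2.14 ± 0.41, adjusted p = 0.00619 and 0.00355). None of these groups overlapped the controls.

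NKD1, a feedback inhibitor that the pathway itself induces, stood at 0.545, 0.492 and 1.02 CPM in controls, 3.19, 4.83 and 3.53 in EZH2 KO and 9.24, 8.98 and 4.66 in SUZ12 KO (2.49 ± 0.54 and 3.48 ± 0.55, adjusted p = 0.00945 and 0.00124). FZD6, FZD8 and WNT5A, already expressed in controls, rose by 1.08, 0.94 and 0.69 in EZH2 KO and by 1.15, 0.91 and 0.92 in SUZ12 KO on the log2 scale. FZD6 stood at 10.6, 11.1 and 8.33 CPM in controls, 24.2, 16.3 and 22.1 in EZH2 KO and 22.8, 25 and 18.0 in SUZ12 KO (adjusted p = 0.0118 and 0.00623). WNT5A stood at 18.5, 17.8 and 17.6 CPM in controls, 29.9, 26.4 and 29.9 in EZH2 KO and 34.0, 33.3 and 33.1 in SUZ12 KO (adjusted p = 0.0192 and 0.00335), a narrow spread within each group, though the EZH2 KO call was lost under 6 of 17 alternatives. FZD8 stood at 85.7, 65.1 and 56.8 CPM in controls, 131, 120 and 144 in EZH2 KO and 126, 127 and 132 in SUZ12 KO (adjusted p = 0.00751 and 0.00678), and none of the 3 genes had a knockout library within its control range. WNT10A was called in EZH2 KO alone (1.16, 2.39 and 0.430 against 0.163, 0.0615 and 0.269 CPM, 2.95 ± 0.89, adjusted p = 0.0439), and the call was lost under 9 of 16 alternatives.

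FZD4, FZD2, LGR5 and DACT2 fell in both. FZD4 went from 190, 219 and 176 CPM to 105, 83.1 and 74.3 in EZH2 KO and 118, 64.1 and 86.1 in SUZ12 KO (-1.14 ± 0.21 and -1.11 ± 0.21, adjusted p = 0.00381 and 0.00335). FZD2 went from 51.7, 44.4 and 38.1 CPM to 19.7, 25.9 and 19.8 and to 19.5, 19.7 and 16.5 (-1.02 ± 0.23 and -1.25 ± 0.23). Neither receptor had a knockout library within its control range. LGR5 went from 21.4, 22.6 and 25.6 CPM to 5.17, 2.11 and 6.69 in EZH2 KO and 10.1, 4.62 and 6.94 in SUZ12 KO (-2.29 ± 0.48 and -1.66 ± 0.47). DACT2 went from 26.8, 20.9 and 23.5 CPM to 10.1, 8.82 and 7.40 and to 2.71, 5.92 and 7.81 (-1.42 ± 0.44, adjusted p = 0.0488, and -2.10 ± 0.45, adjusted p = 0.00687). These groups did not overlap the controls either, but the EZH2 call for DACT2 was lost under 8 of 17 alternatives and the SUZ12 call for LGR5 under 6 of 17.

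**Figure D4:**
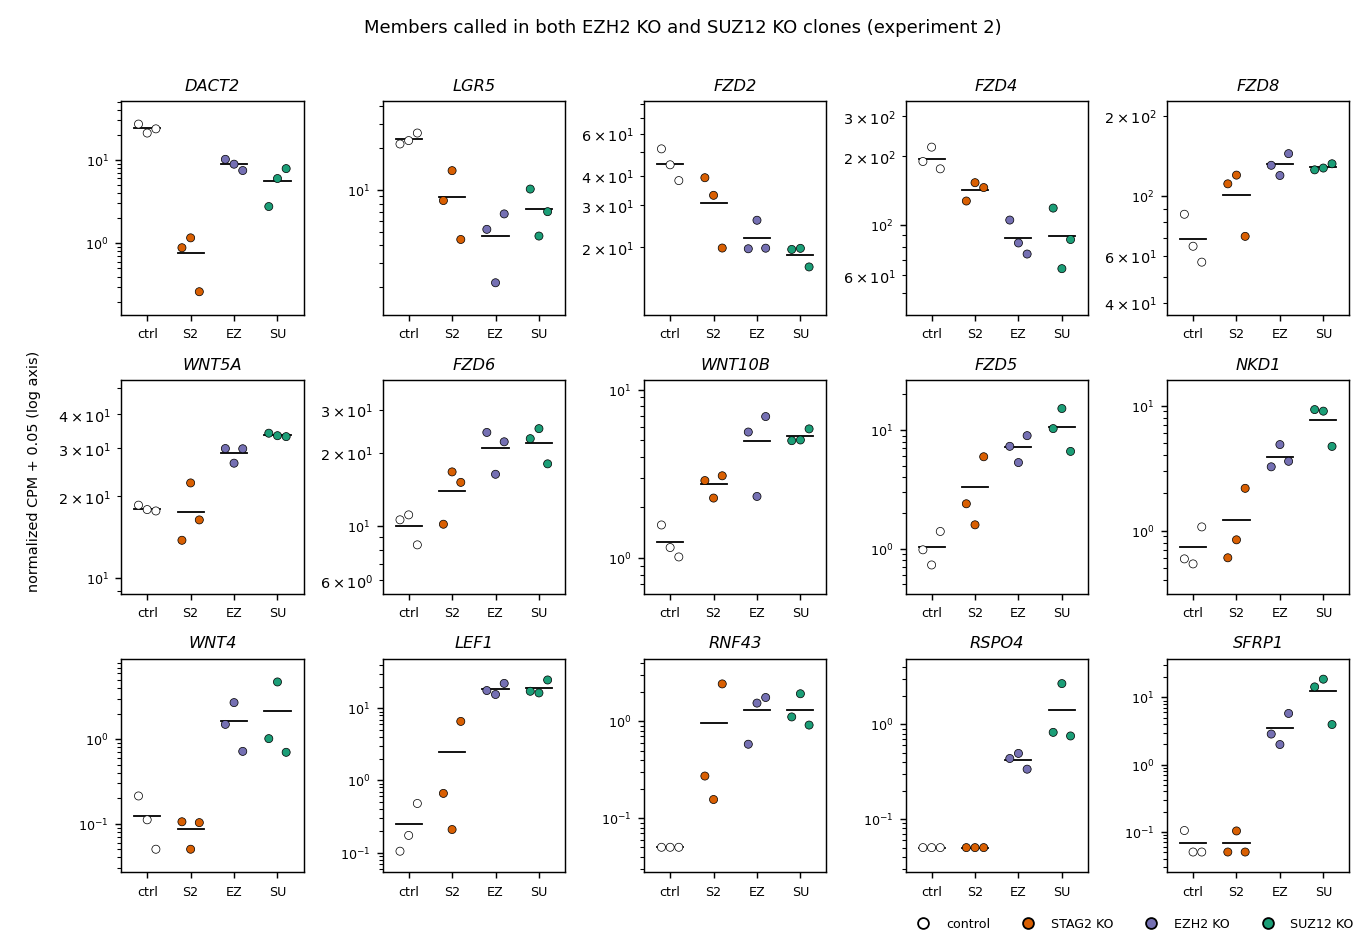
The 15 members called in both EZH2 KO and SUZ12 KO, with 1 point for each of 3 control, 3 STAG2 KO, 3 EZH2 KO and 3 SUZ12 KO libraries of experiment 2 (log axis, normalized CPM plus 0.05) and a bar at each group's mean. LEF1 rises from 0.0545 to 0.430 in controls to between 15.5 and 24.7 in EZH2 KO and SUZ12 KO. FZD4, FZD2, LGR5 and DACT2 lie below their controls in both of these knockouts.

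The difference between the 2 Polycomb knockouts was called for 0 of the 40 members by edgeR and for 0 by DESeq2, where edgeR called 0.00661% of all genes, and 2 members (SFRP1 and RSPO4) had an unadjusted p under 0.05. Markers of other cells moved with these libraries: the summed level of the endothelial markers PECAM1, CDH5 and VWF was 2.11 to 3.33 CPM in EZH2 KO and 2.60 to 6.33 in SUZ12 KO against 0.416 to 1.17 in the A673 controls, and 1, 2 and 0 of the 3 reached 1 CPM in every library of these groups. In SUZ12 KO the epithelial markers summed to 0.580 to 2.96 CPM (controls 0.163 to 0.867) and the melanocyte markers to 1.25 to 4.58 (controls 0.436 to 3.12), with 1 of 3 called higher in each list. Their part in the members' changes was not tested. Without either WT clone replicate, or without the parental library, 9 members were called in EZH2 KO in place of 16.

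STAG2 KO and the Polycomb knockouts of experiment 2 were compared directly, without the controls, as STAG2 KO minus the mean of both. Of 40 members 15 differed, 12 lower and 3 higher in STAG2 KO, where 29.7% of all genes differed. Among the 12, RSPO4, SFRP1, NOTUM and WNT4 passed the filter only through the Polycomb libraries. RSPO2 was lower by -4.40 ± 0.65 on the log2 scale (adjusted p = 0.000591): STAG2 KO libraries stood at 0.334, 0.424 and 0.532 CPM, EZH2 KO at 7.97, 1.78 and 17.6 and SUZ12 KO at 8.37, 10.4 and 8.51. DACT2, down in all 3 knockouts, was lower still in STAG2 KO, by -3.28 ± 0.48 (adjusted p = 0.000516). LEF1 differed by -2.96 ± 0.85 (adjusted p = 0.0217), WNT5A by -0.85 ± 0.15 (adjusted p = 0.00200), and FZD4 by 0.66 ± 0.18 (adjusted p = 0.0146), which stood at 127, 153 and 146 CPM in STAG2 KO. Without clone 5 of experiment 2 the LEF1 difference was -5.63 and 20 members were called, and without clone 2 there were 9, with LEF1 no longer among them.

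Loss of STAG1 gave fewer calls among the members. With 2 controls and 3 STAG1 KO libraries, 33 members were tested, and 3 were lower and 1 higher, where 2.50% and 2.77% of 14373 genes were. The members' median was -0.19 beside -0.00283 over all genes. SFRP2, a secreted antagonist, stood at 5.81 (WT clone) and 10.6 CPM (parental) and at 0.192, 0.109 and 0.304 in the KO libraries (-5.30 ± 0.48, adjusted p = 0.0181), and it passed the filter through the controls alone. LGR5 stood at 68.6 and 110 CPM against 7.67, 9.40 and 21.5 (-2.80 ± 0.45, adjusted p = 0.0322), but the same unedited cells held 17.7 to 33.7 CPM in experiments 1 and 2. WNT5B stood at 3.49 and 3.92 CPM against 0.320, 0.71 and 0.660 (-2.70 ± 0.39, adjusted p = 0.0268), with 0.163 to 5.03 CPM in the controls of experiments 1 and 2. DKK2 rose, from 184 and 167 CPM to 263, 295 and 263 (0.62 ± 0.10, adjusted p = 0.0312). The groups did not overlap for these 4 genes, and leaving out either control library left 0 calls, leaving out KO library 5 left 1 (SFRP2), and leaving out library 1, whose STAG1 transcript was at control level, gave 5. The endothelial markers summed to 1.37 to 3.13 CPM in STAG1 KO libraries, and their part in the result was not tested.

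The effect of STAG2 loss minus that of STAG1 loss, each against the controls of its own experiments, differed for 5 of 35 members, where 6.11% of 14696 genes differed. These were DACT2 (-6.81 ± 0.92, adjusted p = 0.000841), RSPO2 (-4.57 ± 0.65, adjusted p = 0.00112), DKK2 (-3.24 ± 0.86, adjusted p = 0.0394), WNT10B (2.85 ± 0.70, adjusted p = 0.0261) and FZD3 (0.70 ± 0.19, adjusted p = 0.0455). DACT2 stood at 21.6, 82.0 and 61.7 CPM in the 3 STAG1 KO libraries against 28.1 and 26.8 in their controls, and at 1.11 or less in all 5 STAG2 KO libraries. The DACT2 and RSPO2 differences were called under all 19 alternatives, and that of FZD3 under 5 of 19, while DKK2 kept its call under 8 and WNT10B under 13. STAG2 KO and STAG1 KO were made in different experiments.

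Between the unedited controls, WT clone minus parental over 3 experiments, 1 of 34 members was called, where 2.72% of 14167 genes were. It was DKK2, at 0.62 ± 0.13 on the log2 scale (adjusted p = 0.0361), with 207, 213, 238, 269 and 184 CPM in the WT clone and 130, 133 and 167 in parental cells. The DKK2 rise in STAG1 KO clones, which derive from the WT clone, had the same fitted value (0.62). In experiment 3 itself the WT clone stood at 184 CPM and parental cells at 167, against 263, 295 and 263 in STAG1 KO. A link between these differences was not tested. The falls of DKK2 after STAG2 loss (-2.58) and knockdown (-0.98) ran the other way. The call between controls was lost under 6 of 11 alternatives.

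Over the 5 comparisons of A673 cells (STAG2 KO, siSTAG2, EZH2 KO, SUZ12 KO and STAG1 KO), DACT2 was called lower in 4, LGR5 in 4 and FZD4 and FZD2 in 3, and FZD8 was higher in 4, but the Polycomb comparisons share their controls with each other and in part with the STAG2 KO comparison. DKK2 was lower in 3 and higher in 1, and WNT5A higher in 2 and lower in 1. Of the 9 members known as feedback targets (AXIN2, NKD1, LEF1, TCF7, ZNRF3, RNF43, NOTUM, DKK1, LGR5), all were tested in the Polycomb fit, with 5 higher and 1 lower in SUZ12 KO (14.7% and 5.87% of all genes) and 3 higher and 1 lower in EZH2 KO (12% and 3.69%). LEF1, RNF43 and NOTUM among them passed the filter there only through knockout libraries. In STAG2 KO 7 of the 9 were tested, with 0 higher and 2 lower (6.67% and 5.76% of all genes), and differences between these counts were not tested. AXIN2 passed in none of the 5, and ZNRF3, listed at 0 and not tested in the knockdown, passed in none of the others. The members tested in no comparison were DKK4, FZD10, RSPO1, WIF1, WNT1, WNT16, WNT3A, WNT7A, WNT7B, WNT8A and WNT9B, 11 in all.

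**Figure D5:**
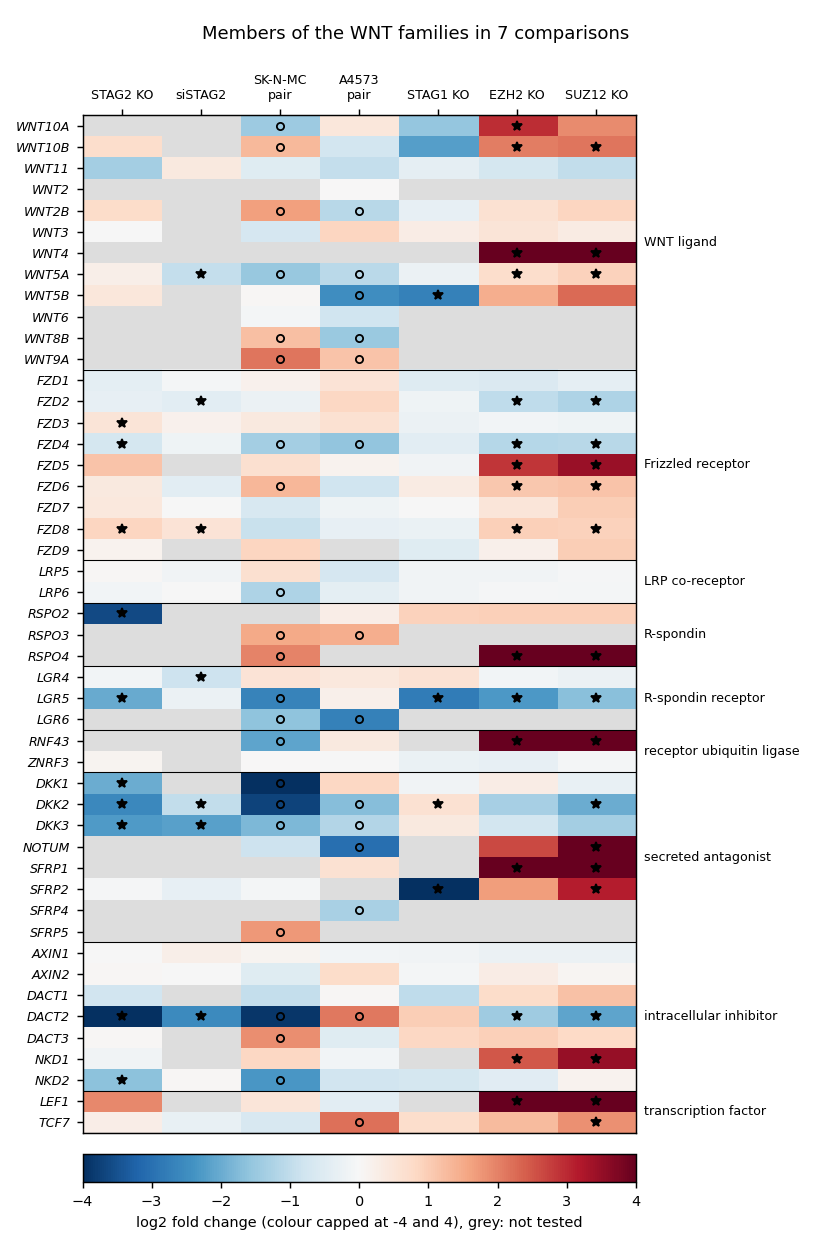
Log2 fold changes of the 48 members tested at least once (rows, grouped by role) in 7 comparisons (columns), from blue for lower to red for higher, with colours held at 4 in either direction and members not tested in grey. Marks show calls at an adjusted p under 0.05, or 2-fold differences in the 2 unreplicated pairs. DACT2 is blue in every column but STAG1 KO and A4573.

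Outside the ligands and receptors, 40 further genes of the pathway were read in the same fits. In STAG2 KO 7 of 37 tested were higher and 4 lower, where 6.67% and 5.76% of all genes were. In EZH2 KO 4 of 38 were higher and 3 lower (12% and 3.69% of all genes), and in SUZ12 KO 7 of 38 and 4 (14.7% and 5.87%). In STAG1 KO 0 of 37 were higher and 1 lower (2.77% and 2.50% of all genes), and after knockdown 1 of 32 was higher and 7 lower (9.54% and 11%). ROR2, a receptor tyrosine kinase for WNT5A, fell in STAG2 KO from a mean of 41.8 to 7.52 CPM (-2.85 ± 0.59, adjusted p = 0.00969), and the related ROR1 rose from 17.5 to 40.2 (1.15 ± 0.22, adjusted p = 0.00719). The same genes were called in those directions in SUZ12 KO, at -1.54 ± 0.27 and 1.64 ± 0.19. PYGO1, a beta-catenin cofactor, rose from 1.99 to 9.21 CPM in STAG2 KO and from 1.75 to 21.6 and 22.8 in EZH2 and SUZ12 KO. WLS, which carries WNT ligands to the surface, fell in EZH2 and SUZ12 KO by 0.84 and 0.96 on the log2 scale. TCF7L1, a TCF factor that mostly represses targets, fell in STAG2 KO (-0.71 ± 0.11) and after knockdown (-0.72 ± 0.07). Among 8 other target genes CCND1 was lower in STAG2 KO (-0.56 ± 0.12, adjusted p = 0.0132) and after knockdown (-0.20 ± 0.05, limma adjusted p = 0.0105), and MYC passed in neither.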

How the data were processed

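RNA was sequenced in 32 libraries. Per the submitters' notes the upstream tools were FastQC, TopHat2 2.0.0, Bowtie 0.12.7, SAMtools 0.1.16 and DESeq2, with build hg38. The authors deposited 4 tables of raw read counts per gene, used as deposited, and 1 knockdown table of size-factor normalized reads (signal), whose steps gave back whole reads for 100% of values within 0.001. No deposited column was left unused, and the authors' own comparisons were not used.

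Counts were fitted over all genes with edgeR 4.0.16 in R 4.3.3 (TMM scaling, default low-count filter, quasi-likelihood test), with experiment as a term where several entered. Knockdown values were fitted with limma 3.58.1 on log2(value + 1) for genes with a mean of at least 10. Calls used an adjusted p under 0.05 (Benjamini-Hochberg over all genes tested). The pairs gave log2 CPM ratios with a prior count of 2 and no test. DESeq2 1.42.0, other scalings, filters and controls, a replicate block and leaving out each library were the alternatives. Scripts were tested on simulated data.

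Called members were named where their mean over the comparison reached 1 CPM, or 10 reads in the knockdown, and pair members past 2-fold where they had 50 counts. RSPO4, RNF43, NOTUM, WNT10A and WNT4, below that mean in a Polycomb comparison, were named after their values were seen. Other pathway and target genes were named at 5 CPM or more, up to 5 in a comparison. The members and lists were chosen with earlier results of these data known. The labels do not say that same-group libraries were separate cultures, so p-values may measure technical spread. The knockdown replicate numbers did not pair the libraries (correlations of 0.0257, 0.0372 and 0.00402). The 2 WT clone libraries of experiment 1 differed little (mean chi-square of 1.33 per gene, against 9.41 in experiment 2), and their sum was an alternative. Promoters came from RefSeq (GRCh38.p14), matched by symbol. 1 blood cell marker is not reported here.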

Additional observations from a re-analysis of the deposited data

Results flagged for a closer look

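Single libraries lay far from the rest of their group, by Dixon's criterion, in 9 of the 68 groups of 4 to 10 libraries examined. Chance gives about 1 in 20 for independent groups, which these were not, since genes were read in the same libraries. All 9 were among the 5 STAG2 KO libraries, which come from 2 experiments. The EZH2, SUZ12 and STAG1 KO groups, with 3 libraries each, were too small to be examined, so the flags cannot be called particular to STAG2 KO. Clone 5 of experiment 2 was high for DACT3 (4.42 CPM), LEF1 (6.55), LRP6 (168), NKD1 (2.13), SFRP2 (6.18) and WNT5B (3.67). Clone 2 of experiment 2 was high for DKK2 (127) and WNT11 (6.29), and library 24 of experiment 1 was low for NKD2 (0.749). DKK2 and NKD2 are among the members called, and the source of these values was not tested.

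The effect of STAG2 loss differed from that of STAG1 loss, by the test of the difference, for DACT2 (-6.81 on the log2 scale), DKK2 (-3.24), FZD3 (0.70), RSPO2 (-4.57) and WNT10B (2.85). STAG2 KO differed from the mean of the Polycomb knockouts for DACT2 (-3.28), FZD5 (-1.44), FZD6 (-0.64), LEF1 (-2.96), NKD1 (-2.23), NKD2 (-0.93), NOTUM (-3.96), RSPO2 (-4.40), RSPO4 (-6.80), SFRP1 (-8.09), WNT4 (-5.46) and WNT5A (-0.85), all lower in STAG2 KO, and for FZD2 (0.58), FZD3 (0.50) and FZD4 (0.66), which were higher. RSPO4 had 0 counts and SFRP1 had 1 in the 3 STAG2 KO libraries. NOTUM had 0, 0 and 2 counts there and WNT4 had 1, 0 and 1 (clones 2, 3 and 5). RSPO4, SFRP1, NOTUM and WNT4 passed the filter through the Polycomb libraries, so their fitted values are not measured folds. The calls for FZD2 and FZD6 were lost under 9 of 15 alternatives each and that for FZD5 under 6.

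The unreplicated pairs moved in opposite directions without STAG2 for DACT2 (-3.88 in SKNMC, 2.12 in A4573), WNT2B (1.64 and -1.10) and WNT8B (1.19 and -1.48), and these differences were not tested.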

How the results depend on the processing

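Over the named members' fold changes, 1140 of 1322 alternative values kept their direction and call, 182 kept the direction and lost the call, and 0 reversed. Counts of members called moved by more than 1.5 times under these settings: STAG2 KO fell from 10 to 2 in experiment 2 alone, EZH2 KO from 16 to 9 with the WT clone as the only control, and DESeq2 raised STAG1 KO from 4 to 8, the difference of the STAG2 and STAG1 effects from 5 to 8, and WT clone minus parental from 1 to 3, which was 4 with no low-count filter. The fits of experiment 2 alone and of the WT clone alone held fewer libraries, and the cause of these changes was not tested. With 1 library left out at a time, called members numbered 8 to 13 in STAG2 KO, 9 to 20 in EZH2 KO, 14 to 22 in SUZ12 KO, 0 to 0 in EZH2 KO minus SUZ12 KO, 9 to 20 in STAG2 KO minus PRC2 KO, 0 to 5 in STAG1 KO, 2 to 9 in the difference of STAG2 and STAG1 effects, 0 to 2 in WT clone minus parental and 6 to 8 in siSTAG2. Where this left a group with 1 library, that library was assumed to vary like the other groups. The knockdown with a replicate block gave 8 calls, the 7 reported and AXIN1, and edgeR on recovered reads gave 8, the 7 reported and RSPO2. Counts near 0 limit members such as SFRP1, RNF43 and RSPO4, for which ratios are bounds or wide intervals.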
